A study of Mus musculus with 6 samples.

Results

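The 10 genes described here belong to the BCL2 family, whose proteins decide at the mitochondrial outer membrane whether a cell lives or dies. They were chosen by symbol, as 4 anti-apoptotic genes (Bcl2, Bcl2l1, Bcl2l2 and Mcl1), 2 effector genes (Bax and Bak1) and 4 BH3-only genes (Bcl2l11, Bbc3, Pmaip1 and Bid). All 10 were found among the 18288 gene symbols, and all 10 passed the filter on low values. RNA sequencing measured their transcripts in CD8+ T cells of Nae1T-KO mice (3 libraries) and Nae1WT mice (3 libraries), after activation in culture and on day 2. Nae1 encodes a subunit of the enzyme that activates NEDD8, a ubiquitin-like protein that switches on cullin ubiquitin ligases. The labels name no Cre driver, deleted exon, strain, age or stimulus, and both groups share cell type, culture and day.

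BAX and BAK open pores in the outer mitochondrial membrane, which releases cytochrome c and starts caspase activation. BCL2, BCL-XL (from Bcl2l1), BCL-W (from Bcl2l2) and MCL1 hold them in check, and BH3-only proteins such as BIM (from Bcl2l11), PUMA (from Bbc3), NOXA (from Pmaip1) and BID bind these guardians or engage the effectors directly. In T cells, cytokine signals sustain BCL2 and MCL1, BIM is a main driver of death as responses contract, and several family proteins, MCL1 and NOXA among them, are short-lived and removed through ubiquitin.

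The sequence around a transcription start is shown for Bbc3 and Bcl2l2, which passed the test below, and for Bcl2l11. A window of Bcl2l11 and a window of Bbc3 were the 2 of 14 member windows that held the FOXO core motif. Both genes also had other windows, which lacked the motif and are not shown. The sequences are from RefSeq on GRCm38.p6, each running from 250 bases before to 50 after an annotated start, and capitals mark GTAAACA read on either strand. The Bbc3 window lies on the plus strand at chr7:16310011-16310310, the Bcl2l11 window on the plus strand at chr2:128125788-128126087 and the Bcl2l2 window on the plus strand at chr14:54883175-54883474.
Bbc3: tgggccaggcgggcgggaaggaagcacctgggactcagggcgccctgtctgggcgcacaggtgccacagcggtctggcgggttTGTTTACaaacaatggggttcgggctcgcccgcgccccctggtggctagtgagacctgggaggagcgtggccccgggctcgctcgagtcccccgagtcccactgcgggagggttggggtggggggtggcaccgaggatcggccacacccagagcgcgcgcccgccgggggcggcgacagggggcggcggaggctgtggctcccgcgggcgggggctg
Bcl2l11: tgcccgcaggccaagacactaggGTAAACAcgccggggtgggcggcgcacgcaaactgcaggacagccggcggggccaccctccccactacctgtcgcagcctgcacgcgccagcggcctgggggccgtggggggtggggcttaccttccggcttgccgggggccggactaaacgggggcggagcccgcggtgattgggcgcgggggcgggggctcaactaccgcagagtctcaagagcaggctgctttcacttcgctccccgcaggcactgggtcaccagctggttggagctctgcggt
Bcl2l2: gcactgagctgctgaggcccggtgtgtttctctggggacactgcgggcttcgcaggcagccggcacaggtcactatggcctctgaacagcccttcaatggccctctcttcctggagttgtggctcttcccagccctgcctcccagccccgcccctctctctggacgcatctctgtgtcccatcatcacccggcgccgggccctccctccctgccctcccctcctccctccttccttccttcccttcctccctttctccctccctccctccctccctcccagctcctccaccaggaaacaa

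In the windows shown, the motif begins 167 bases before the start for Bbc3 and 227 bases before it for Bcl2l11. Windows on chromosome 18, where Pmaip1 lies, were left out, and the other 9 of the 10 members had windows. Of all 32851 windows used, 3.65% held GTAAACA on either strand. The STAT motif TTCNNNGAA (8.30% of all windows) and the AP-1 motif TGANTCA (7.81%) were in 0 of the 14 member windows, the antioxidant response motif TGANNNNGC (41.3%) was in 3, of Bax, Bcl2l1 and Bcl2l11, and the p53 decamer motif (8.36%) was in 1, of Bax. The AP-1 and antioxidant motifs begin with the same letters and can overlap. A match is a stretch of letters, not a measured binding site.

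Libraries held 15628252 to 25444653 reads assigned to genes. Values are the authors' normalized counts, which are reads divided by 1 size factor per library. Nae1 itself stood at 390.3, 338 and 367 in Nae1T-KO, against 1601, 1806 and 1882 in Nae1WT. All 10 markers of T cells and CD8 identity were measured. They summed to 44765 to 46364 normalized counts in Nae1T-KO and 48342 to 51718 in Nae1WT. Among them Cd3g (log2 fold change -0.51) and Thy1 (-0.43) were called lower in Nae1T-KO, and Cd5 (0.53) was called higher. The remaining markers of this list each overlapped between the groups. Thy1, the marker with the most counts, had 10811, 8940 and 9099 across Nae1T-KO and 13170, 12151 and 13430 across Nae1WT. By Xist and Y-linked transcripts, Nae1T-KO replicates 1 and 2 and Nae1WT replicate 3 were female and the other 3 libraries male. Each group therefore held at least 2 mice. Whether each replicate was a separate mouse is not in the labels, so p-values cover only the spread between these samples, part of which may be technical. Genes were tested with limma on log2(normalized count + 1), and an adjusted p under 0.05 over all 13819 tested genes was called.

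Bcl2l2, Bbc3 and Pmaip1 rose in Nae1T-KO, by 1.57-fold, 1.57-fold and 1.35-fold, and 0 of the 10 members fell. The other 7 members did not pass. Among all tested genes 12.7% were called, 6.53% higher and 6.18% lower. Higher calls were 903 and lower calls 854, against 1176 and 622 with scaling to total counts, which also called 3 members higher and 0 lower. The 3 called members were also the 3 whose groups did not overlap, all with Nae1T-KO above Nae1WT, an arrangement found in 16.7% of all tested genes. The median log2 fold change of the 10 members was 0.20, against -0.01 over all tested genes. By role, 2 of 4 BH3-only genes, 1 of 4 anti-apoptotic genes and 0 of 2 effector genes were called. In bulk RNA, fewer cells of a type and less RNA per cell cannot be told apart.

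**Figure D1:**
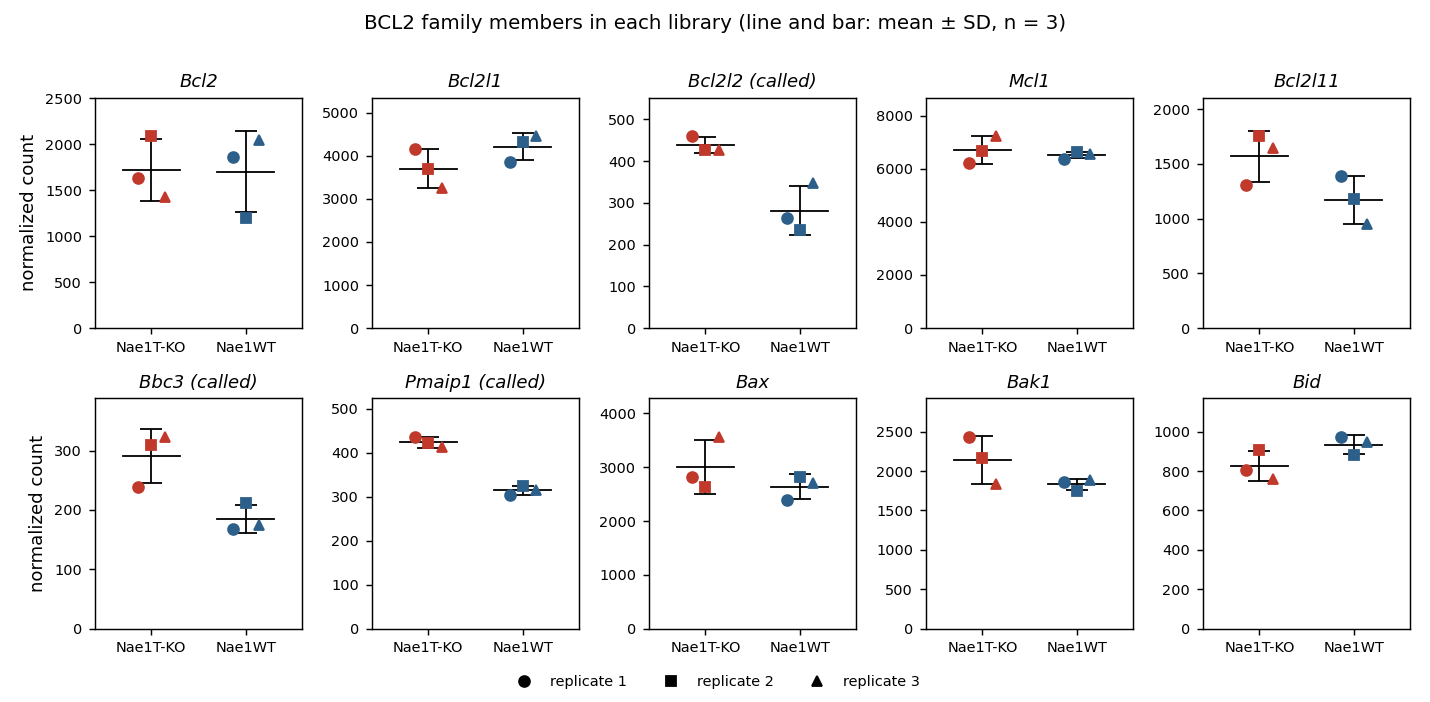
Normalized counts (vertical axis from 0) of each BCL2 family member in 3 Nae1T-KO and 3 Nae1WT libraries, with 1 symbol per library and the mean ± SD (n = 3). The groups separate for Bcl2l2, Bbc3 and Pmaip1 and overlap for the other 7.

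Among the guardians, Bcl2l2 was the only one past the threshold. It encodes BCL-W, which protects cells by binding BAX-like and BH3-only proteins. Its normalized counts were 459.7, 427 and 427 across Nae1T-KO and 263, 235 and 346 across Nae1WT. Every Nae1T-KO library lay above every Nae1WT library, and the spread was wider in Nae1WT, where replicate 3 was highest. The means were 438 ± 19.0 in Nae1T-KO and 281 ± 57.9 in Nae1WT (SD, n = 3 each), a log2 change of 0.65 (SE 0.14, adjusted p = 0.0129). In the 4 same-sex pairs of libraries the log2 difference ran from 0.30 to 0.86. Its sign adds nothing, because groups that do not overlap give positive differences in every pair. Both female pairs used Nae1WT replicate 3 and both male pairs Nae1T-KO replicate 3, so the pairs are not independent. Bcl2l2 lies on chromosome 14 from 54883377 to 54888234 (mm10), and 594 of its exon bases are shared with Gm20521 on the same strand, so reads from those bases cannot be told apart.

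Mcl1, which encodes the short-lived guardian that activated T cells need, had 6215, 6679 and 7233 normalized counts across Nae1T-KO and 6386, 6629.6 and 6557 across Nae1WT. The 3 Nae1WT libraries lay inside the Nae1T-KO range. The log2 fold change was 0.04 with a 95% interval of -0.12 to 0.20 (adjusted p = 0.774), and it was -0.02 without Nae1T-KO replicate 3.

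Bcl2l1, which encodes BCL-XL, a guardian induced when T cells are activated, had 4155, 3703 and 3252 normalized counts across Nae1T-KO and 3860.4, 4309 and 4458 across Nae1WT. Nae1T-KO replicates 2 and 3 were below every Nae1WT library, and Nae1T-KO replicate 1 lay within the Nae1WT range. The log2 fold change was -0.19 with an interval of -0.40 to 0.02 (adjusted p = 0.214). Same-sex pairs, which shared libraries, differed by -0.41 to -0.10, positive in 0 of 4.

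Bcl2, the founding guardian of the family, varied most between libraries of the same group. It had 1633, 2088 and 1429 normalized counts across Nae1T-KO and 1857, 1201 and 2049.5 across Nae1WT. The highest library exceeded the lowest 1.46-fold within Nae1T-KO and 1.71-fold within Nae1WT, while the group means were 1716 ± 337 in Nae1T-KO and 1702 ± 445 in Nae1WT (SD, n = 3 each). The log2 fold change of 0.03 had the widest interval of the 10 members, -0.54 to 0.60 (adjusted p = 0.949), so changes within it could not be detected against this spread. Its sign changed with single libraries, to -0.12 without Nae1T-KO replicate 2 and -0.20 without Nae1WT replicate 2, and it was -0.11 with sex as a covariate.

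Of the BH3-only genes, Bbc3 and Pmaip1 rose. Bbc3 encodes PUMA, a p53 and FOXO target that binds all the main guardians. It had 239, 309 and 323 normalized counts across Nae1T-KO and 168, 211 and 174 across Nae1WT. The groups did not overlap, although the lowest Nae1T-KO library, replicate 1, stood near the highest Nae1WT library, replicate 2. The means were 291 ± 44.9 in Nae1T-KO and 185 ± 23.2 in Nae1WT (SD, n = 3 each), a log2 change of 0.65 (SE 0.15, adjusted p = 0.0184), resting on 137 to 351 reads per library. The call rested on single libraries. It ended without Nae1T-KO replicate 2 (0.60, adjusted p = 0.0657), without Nae1WT replicate 1 (0.58, adjusted p = 0.0549) and without Nae1WT replicate 3 (0.61, adjusted p = 0.0629), with 0.00223 to 0.250 over all alternatives. In the 4 same-sex pairs of libraries the log2 difference ran from 0.45 to 0.94, its sign again set by the lack of overlap. The gene lies on chromosome 7 from 16309616 to 16318205 (mm10).

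Pmaip1 encodes NOXA, a BH3-only protein that binds MCL1 and is itself induced by p53 and by stress signals. It varied least of the 10 members within Nae1T-KO, with 436, 423 and 412 normalized counts across Nae1T-KO and 303, 325 and 314 across Nae1WT. The lowest Nae1T-KO library stood well above the highest Nae1WT library, and the coefficient of variation was 2.86% in Nae1T-KO and 3.47% in Nae1WT. The means were 424 ± 12.1 in Nae1T-KO and 314 ± 10.9 in Nae1WT (SD, n = 3 each), a log2 change of 0.43 (SE 0.09, adjusted p = 0.0134). The call held without each library in turn, with log2 fold changes of 0.40 to 0.45. The 4 same-sex pairs differed by 0.34 to 0.47, with the sign set by the lack of overlap.

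Bcl2l11, which encodes BIM, did not pass, though 4 of 19 alternatives called it higher. It had 1309.7, 1754 and 1648 normalized counts across Nae1T-KO and 1389, 1176 and 953 across Nae1WT. Nae1T-KO replicates 2 and 3 were above every Nae1WT library, and Nae1T-KO replicate 1 was below Nae1WT replicate 1. The log2 fold change was 0.43 with an interval of 0.09 to 0.76 (adjusted p = 0.0911), the same size as that of Pmaip1 with a standard error of 0.15 against 0.09. It passed without Nae1T-KO replicate 1 (0.55, adjusted p = 0.0415), without Nae1WT replicate 1 (0.56, adjusted p = 0.0387), with sex as a covariate (0.52, adjusted p = 0.0305) and in DESeq2 on recovered reads (0.42, adjusted p = 0.0249). Over all alternatives the adjusted p ran from 0.0249 to 0.259. Same-sex pairs differed by 0.25 to 0.88, positive in 4 of 4. Both female pairs used Nae1WT replicate 3, the lowest library. Both male pairs used Nae1T-KO replicate 3, so the 4 are not independent.

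Bid, which carries the death receptor signal to mitochondria after cleavage by caspase 8, had 806, 909 and 761 normalized counts across Nae1T-KO and 974, 880.2 and 947 across Nae1WT. Nae1T-KO replicate 2 lay inside the Nae1WT range and the other two below it. The log2 fold change was -0.18 with an interval of -0.37 to 0.01 (adjusted p = 0.200), and all 4 same-sex pairs were negative, from -0.35 to -0.06. Those pairs also shared libraries and are not independent.

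Neither pore-forming effector passed. Bax had 2809, 2639 and 3566 normalized counts across Nae1T-KO and 2388, 2821 and 2716 across Nae1WT, with Nae1T-KO replicate 3 alone above the Nae1WT range. Its log2 fold change was 0.18 with an interval of -0.07 to 0.43 (adjusted p = 0.329). Bak1 had 2435, 2163 and 1831 normalized counts across Nae1T-KO and 1857, 1753 and 1882 across Nae1WT, with Nae1T-KO replicate 3 inside the Nae1WT range and the other two above it. Its log2 fold change was 0.22 with an interval of 0.00 to 0.43 (adjusted p = 0.168), and it passed without Nae1T-KO replicate 3 (0.33, adjusted p = 0.0224, with 0.0224 to 0.482 over all alternatives). Exons of Bak1 share 256 bases with Ggnbp1 on the opposite strand, which had only 16 to 32 reads per library. Exons of Bax share 192 bases with Gm45808 on the same strand.

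**Figure D2:**
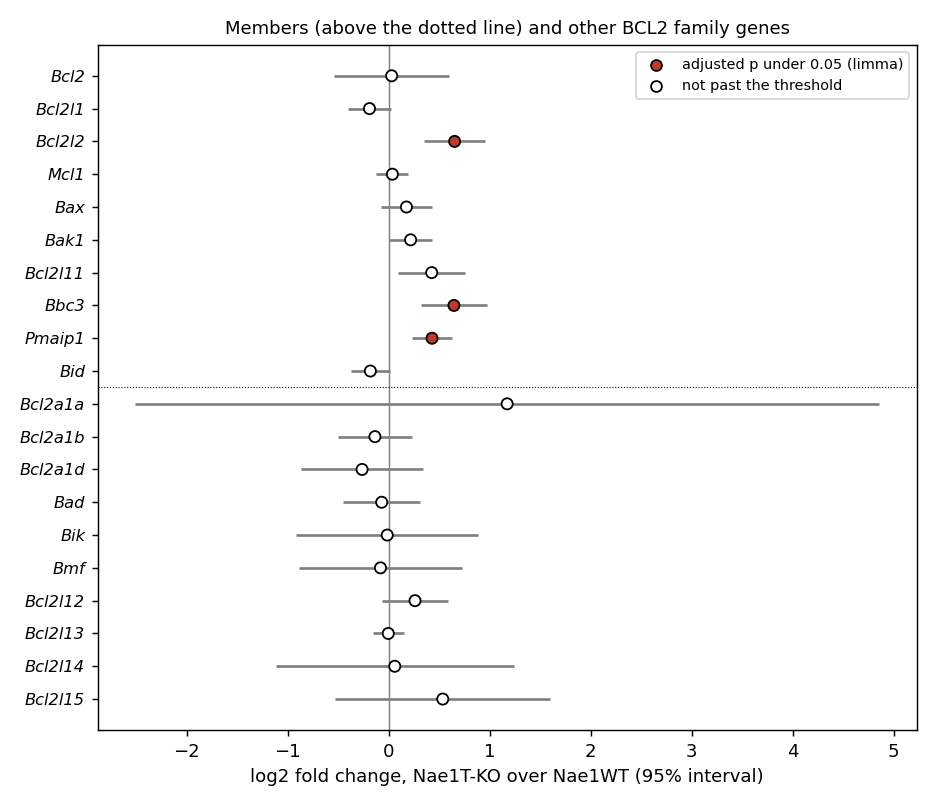
Log2 fold change, Nae1T-KO over Nae1WT, with its 95% interval (limma) for the 10 members and for 10 other tested BCL2 family genes. Filled points passed the threshold, and they are Bcl2l2 at 0.65, Bbc3 at 0.65 and Pmaip1 at 0.43.

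Levels per length put the called genes at the low end of the family. Per kilobase of exon, Bax was highest, at 3466 ± 569 normalized counts on average in Nae1T-KO and 3047 ± 261 in Nae1WT (SD, n = 3 each). Mcl1 followed at 1963 ± 149 in Nae1T-KO and 1909 ± 36.6 in Nae1WT. Then came Bcl2l1 at 953 ± 116 in Nae1T-KO and 1083 ± 80.0 in Nae1WT, and Bak1 at 898 ± 127 in Nae1T-KO and 767 ± 28.6 in Nae1WT. In Nae1T-KO the libraries of Bcl2l1 and Bak1 overlapped, and in Nae1WT they did not. Bid came next, with a mean of 377 in Nae1T-KO and 427 in Nae1WT.

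The 5 remaining members lay lower. Per kilobase, Bcl2l11 had 228 ± 33.6 normalized counts on average in Nae1T-KO and 170.0 ± 31.6 in Nae1WT, and Bcl2 had 187 ± 36.8 in Nae1T-KO and 186 ± 48.6 in Nae1WT. These 2 overlapped in both groups. Bbc3 had 160.2 ± 24.8 in Nae1T-KO and 102 ± 12.8 in Nae1WT. Pmaip1 had 155 ± 4.43 in Nae1T-KO and 115 ± 3.99 in Nae1WT, and Bcl2l2 had 107 ± 4.65 in Nae1T-KO and 69.0 ± 14.2 in Nae1WT. Bcl2l2 was lowest in every library, and Bbc3 and Pmaip1 overlapped each other in both groups, and both overlapped Bcl2 in Nae1T-KO. With the length of the longest coding transcript in place of the exon union the order of means was the same in each group. The 4 BH3-only genes summed per kilobase came to 26.7%, 30.7% and 28.5% of the sum of the 4 anti-apoptotic genes in Nae1T-KO libraries, against 27.2%, 25.0% and 23.2% in Nae1WT libraries. These shares overlapped between the groups.

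**Figure D3:**
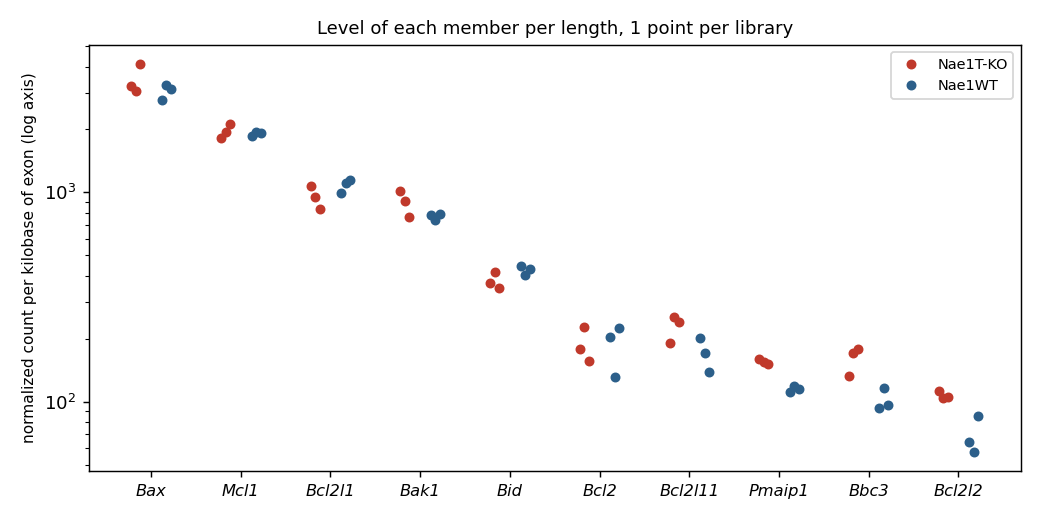
Normalized count per kilobase of exon (log axis) of each member, 1 point per library, ordered by the Nae1WT mean. Bax was highest at 3466 per kilobase in Nae1T-KO and 3047 in Nae1WT, and Bcl2l2 lowest at 107 in Nae1T-KO and 69.0 in Nae1WT.

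No other member of the family passed. Of 13 further BCL2 family genes 11 were analysed and 10 tested, of which 0 were higher and 0 lower. Calls over all tested genes were 6.53% higher and 6.18% lower. Bcl2l10 and Hrk were not analysed here. None of the 10 reached an unadjusted p under 0.05 in limma, and edgeR, DESeq2 and limma-voom on recovered reads also called 0. Their median log2 fold change was -0.01. Among them, Bad, which encodes a BH3-only protein regulated by growth factor signals, had 163, 129 and 207 normalized counts across Nae1T-KO and 165, 166 and 183 across Nae1WT. Bmf, another BH3-only gene, had 13.4, 34.4 and 24.2 in Nae1T-KO against 29.5, 23.0 and 19.8 in Nae1WT, and both it and Bad overlapped between groups. Bik, a BH3-only gene as well, had 12.3, 19.4 and 13.1 in Nae1T-KO against 9.82, 25.1 and 12.9 in Nae1WT. Bcl2l13 had 1373, 1397 and 1303 across Nae1T-KO and 1325, 1344 and 1412 across Nae1WT, with a log2 fold change between -0.15 and 0.15 at 95%.

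Bcl2l12 was the 1 tested gene of this list whose groups did not overlap, with 221, 168 and 165 normalized counts across Nae1T-KO and 155, 154 and 149 across Nae1WT (log2 fold change 0.26, adjusted p = 0.263). Nae1T-KO lay wholly above Nae1WT in 16.7% of all tested genes. Bcl2l14 and Bcl2l15 stayed at 22.4 or below in every library, with log2 fold changes of 0.06 (adjusted p = 0.955) and 0.54 (adjusted p = 0.504). Bok, a relative of BAX, was under the filter, with 2.24, 2.64 and 5.05 normalized counts across Nae1T-KO and 9.82, 12.5 and 11.4 across Nae1WT. With no filter its log2 fold change was -1.56 (limma, adjusted p = 0.0531), resting on 2 to 5 reads in each Nae1T-KO library and 8 to 15 in each Nae1WT one.

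Of 20 genes outside the family that are known p53 targets, 8 rose, 0 fell and 12 did not pass, 1 of these untested. Among all tested genes 6.53% were called higher and 6.18% lower. The median log2 fold change of the list was 0.28. Of its 19 tested genes 14 had a positive change, and the rest had a negative one, down to -0.35. The 4 with the largest changes were Gadd45a at 1.85 (adjusted p = 0.00561), Plk3 at 0.88 (adjusted p = 0.00114), Cdkn1a, which encodes the cell cycle inhibitor p21, at 0.85 (adjusted p = 0.000425) and Perp at 0.82 (adjusted p = 0.00116). Gadd45a was low, with 63.8, 41.4 and 36.4 normalized counts across Nae1T-KO and 16.0, 9.41 and 11.4 across Nae1WT. Each of these 4 calls held without any 1 library. Fas, which is also a known p53 target, was counted with the death receptors and fell.

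Of 19 transcription factors known to act on the family, 4 rose, 0 fell and 15 did not pass, 1 of these untested. The shares over all tested genes were 6.53% higher and 6.18% lower. The 4 that rose were Jun at 0.60 (adjusted p = 0.00126), Rela at 0.44 (adjusted p = 0.00517), Trp53 at 0.31 (adjusted p = 0.0126) and Nfkb1 at 0.28 (adjusted p = 0.0411). Trp53, which encodes p53, had 3122, 3138 and 3215 normalized counts across Nae1T-KO and 2680.4, 2452 and 2526 across Nae1WT. Jun and Rela kept their calls without any 1 library. Trp53 lost its call without Nae1WT replicate 2 or 3, with log2 fold changes of 0.28 to 0.34 over the 6 libraries left out in turn and a highest adjusted p of 0.0662. Nfkb1 kept its call only without Nae1T-KO replicate 3, with 0.24 to 0.35 and a highest adjusted p of 0.141.

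Of 18 genes of the cytokine and costimulatory signals that sustain the guardians, inhibitors of those signals included, 3 rose, 2 fell and 13 did not pass. Calls over all tested genes were 6.53% higher and 6.18% lower. Il2, the T cell growth factor, had 1349.9, 2022 and 2499 normalized counts across Nae1T-KO and 616, 734 and 587 across Nae1WT, a log2 change of 1.56 (SE 0.22, adjusted p = 0.00715). Socs3, a feedback inhibitor of cytokine receptors, rose by 0.76 (adjusted p = 0.0113) and the costimulatory receptor gene Cd28 by 0.48 (adjusted p = 0.0245). Il7r, which encodes the receptor through which IL-7 maintains BCL2, had 542, 512 and 516 across Nae1T-KO and 657, 594 and 769.7 across Nae1WT (-0.36, adjusted p = 0.0476). Its call held only without Nae1WT replicate 2, with log2 fold changes of -0.44 to -0.25 and a highest adjusted p of 0.172 over the 6 libraries left out in turn. It also ended with scaling to total counts (-0.31, adjusted p = 0.0883) and in limma-voom (-0.37, adjusted p = 0.0530). Cd28 lost its call without Nae1T-KO replicate 2 or 3 or Nae1WT replicate 2 or 3, with 0.40 to 0.63 and a highest adjusted p of 0.0922. The calls for Il2 and Socs3 held without any 1 library.

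Upstream of Bid, 2 of 12 death receptor genes rose, 1 fell and 9 did not pass. Over all tested genes the shares were 6.53% higher and 6.18% lower. Fas, the death receptor gene, fell to 426, 424 and 436 normalized counts across Nae1T-KO, against 663, 607 and 624 across Nae1WT, a log2 change of -0.56 (SE 0.08, adjusted p = 0.00252) that held without any 1 library. Tnfrsf10b, which encodes the mouse TRAIL receptor, rose by 0.45 (adjusted p = 0.0289) and the TNF receptor gene Tnfrsf1a by 0.44 (adjusted p = 0.0185). Both of these calls depended on single libraries. Tnfrsf10b lost it without Nae1T-KO replicate 2 or 3 or Nae1WT replicate 2 or 3 (0.34 to 0.53, highest adjusted p = 0.104), and Tnfrsf1a without Nae1T-KO replicate 2 or Nae1WT replicate 1 or 3 (0.39 to 0.49, highest adjusted p = 0.0688).

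Of 20 genes that act at mitochondria or in caspase activation beside the family, 3 rose, 0 fell and 17 did not pass. Over all tested genes 6.53% were called higher and 6.18% lower. Casp6, an executioner caspase gene, had 976, 622 and 658 normalized counts across Nae1T-KO and 229.6, 277 and 391 across Nae1WT, a log2 change of 1.33 (SE 0.23, adjusted p = 0.0101). Apaf1, the scaffold of the apoptosome, rose by 0.32 (adjusted p = 0.0379) and Bag1, which encodes a BCL2-binding co-chaperone, by 0.29 (adjusted p = 0.0154). Casp6 lost its call without Nae1WT replicate 2 (1.13 to 1.54 over the 6 libraries left out in turn, highest adjusted p = 0.0673), and Bag1 without Nae1WT replicate 2 or 3 (0.26 to 0.31, highest adjusted p = 0.0626). Apaf1 kept its call only without Nae1T-KO replicate 3 (0.26 to 0.39, highest adjusted p = 0.125). The direction of the list also depended on the fit. DESeq2 on recovered reads called 3 higher and 3 lower. Without Nae1WT replicate 1, limma called 2 higher and 3 lower.

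Among 18 ubiquitin system genes known for turnover of family proteins, 2 rose, 0 fell and 16 did not pass. The shares over all tested genes were 6.53% higher and 6.18% lower. Fbxw7, the substrate receptor that marks MCL1 for degradation, had 935, 899.8 and 999 normalized counts across Nae1T-KO and 623, 751 and 649 across Nae1WT, a log2 change of 0.49 (SE 0.09, adjusted p = 0.00752) that held without any 1 library. Cdc20, an activator of the anaphase-promoting complex, rose by 0.27 (adjusted p = 0.0344), a call kept only without Nae1T-KO replicate 3 (0.21 to 0.31, highest adjusted p = 0.107). These are transcripts, and protein levels of the family were not measured.

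**Figure D4:**
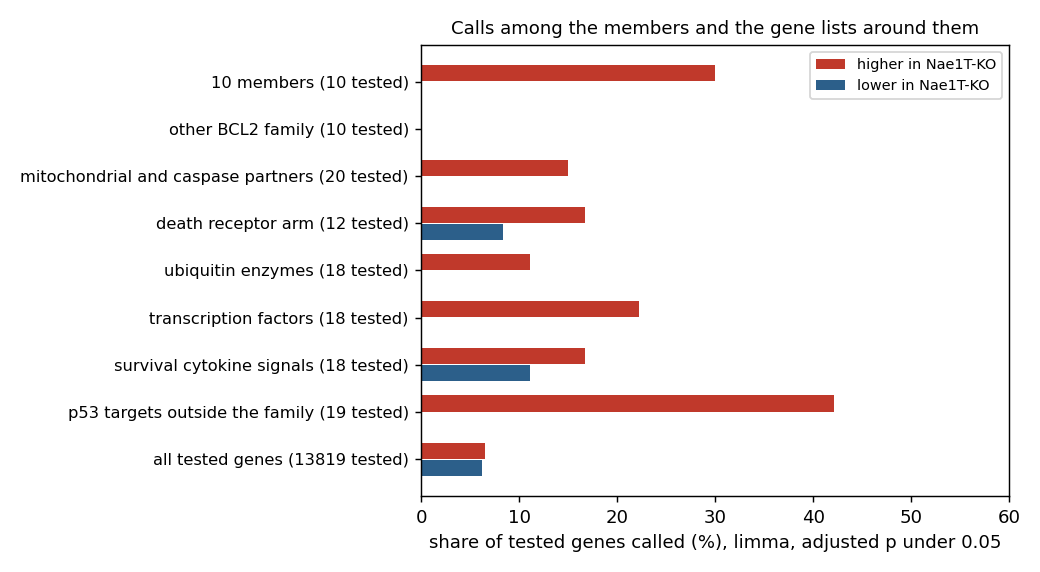
Share of tested genes called higher (upper bar) or lower (lower bar) in Nae1T-KO, for the 10 members, 7 lists around them and all 13819 tested genes. The members show 3 of 10 higher and 0 lower, and over all tested genes 6.53% were higher and 6.18% lower.

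Genes whose pattern over the 6 libraries lay nearest to a called member were found by the root mean square difference of centred log2 values. For Pmaip1 they were B4galt3 at 0.0143, Trafd1 at 0.0345 and Ndst2 at 0.0403. For Bcl2l2 they were Rnf8 at 0.0424, Prnp at 0.0560 and Pik3c2b at 0.0761, and for Bbc3 Arhgef11 at 0.0827, Gm21992 at 0.0871 and Klf3 at 0.0902.

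Summed markers of myeloid cells were higher in every Nae1T-KO library than in every Nae1WT library. Of 14 myeloid and dendritic markers 7 were measured, summing to 149.9 to 237 normalized counts in Nae1T-KO and 69.0 to 101 in Nae1WT. Csf1r, Adgre1, Fcgr1, Clec9a, Siglech, S100a8 and S100a9 had no values. Of the 7 measured, 1 was called, Xcr1 at 1.75 (limma, adjusted p = 0.0350). Xcr1 rested on 9 to 20 reads per library in Nae1T-KO and 2 to 5 in Nae1WT. Of 13 B cell markers 10 were measured, summing to 218 to 627 in Nae1T-KO and 247 to 370.0 in Nae1WT, highest in Nae1T-KO replicate 2, which also had the most Bcl2 and Bcl2l11. All 9 erythroid markers were measured, summing to 252 to 2132 in Nae1T-KO and 158 to 834 in Nae1WT, highest in the same library. All 8 CD4 T cell markers summed to 1160.2 to 1415 in Nae1T-KO and 905 to 962 in Nae1WT. Il13, Il5 and Cd40lg were each higher in every Nae1T-KO library than in every Nae1WT library, and the other CD4 markers overlapped. That arrangement was found in 16.7% of all tested genes, and 0 of the 8 CD4 markers were called. A split was made after the values were seen. The cytokine genes Il13, Il4 and Il5 summed to 804, 442 and 354 across Nae1T-KO and 129, 236 and 333 across Nae1WT. The other 5 markers, Cd40lg among them, summed to 611, 929 and 806 across Nae1T-KO and 776, 723 and 629 across Nae1WT. The sums of these 5 overlapped between the groups. Cd4 itself stood at 20.1, 118 and 72.7 in Nae1T-KO, against 119, 20.9 and 42.6 in Nae1WT. The 4 of 8 markers of NK and gamma-delta T cells that were measured summed to 19.4 to 32.3 in Nae1T-KO and 19.9 to 28.2 in Nae1WT. No gene analysed here summed to under 11 reads over the 6 libraries, so no measured marker could be at 0 in all 6. The part of such cells in the values of the 10 members was not tested.

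**Figure D5:**
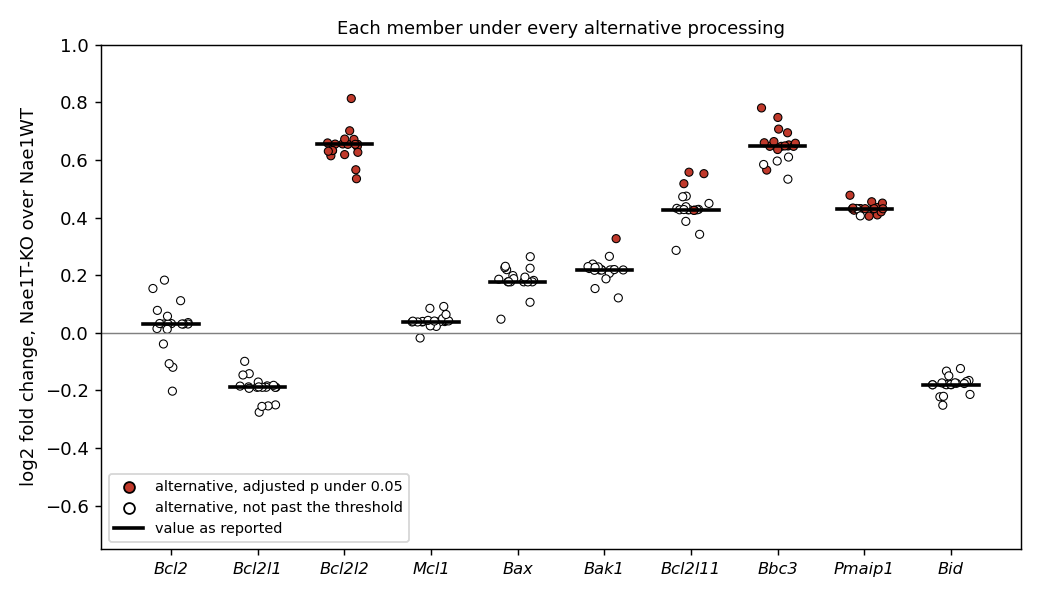
Log2 fold change, Nae1T-KO over Nae1WT, of each member under 19 alternative ways of processing (points, filled where adjusted p was under 0.05) with the value as reported (line). Bcl2l2 was called in 18 of 19, Pmaip1 in 17, Bbc3 in 15 and Bcl2l11 in 4.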

How the data were processed

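RNA was sequenced from 3 Nae1T-KO and 3 Nae1WT libraries of CD8+ T cells. Per the labels' protocols, total RNA was enriched for polyadenylated transcripts and reverse transcribed from random hexamers. Per the submitters' processing notes, bcl2fastq, HISAT2, DESeq2 1.42.0 and build mm10 were used. The sources used here give no counter, annotation or strand setting, so reads of overlapping genes and near-identical copies may be shared. The authors deposited normalized counts per gene, a signal made by dividing counts by a size factor. In each library 100% of values were whole multiples of the value of 1 read, within 0.001 of a read, and the steps matched DESeq2 size factors, which recovered 15628252 to 25444653 reads. For Nae1T-KO replicate 3 the step was close to 1, so recovery there leans on that match.

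Genes with a normalized count of at least 10 in at least 3 libraries (13819) were tested with limma 3.58.1 (R 4.3.3; trend and robust options) on log2(normalized count + 1), for group alone, two-sided, with Benjamini-Hochberg adjustment over all of them. Fold changes on this scale understate changes of low genes. edgeR 4.0.16, DESeq2 and limma-voom ran on recovered reads. Lengths and exon overlaps are from GENCODE M21 (mm10). The members, lists and tests were chosen with earlier results of these data known. All 10 members, all analysed other family genes and up to 4 called genes of each further list, by size of change, were named, with Trp53, Il2, Il7r, Fas, Cdkn1a and Nae1 in any case.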

Additional observations from a re-analysis of the deposited data

How the results depend on the processing

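The number of genes called, 1757, ranged from 844 to 1790 when each library was left out, and was 844 without Nae1WT replicate 2, 954 without Nae1WT replicate 3 and 1034 without Nae1T-KO replicate 2. Members called ranged from 2 to 4 over the same 6 fits. Other lists ranged from 0 to 5 (mitochondrial machinery), 1 to 4 (death receptors), 1 to 3 (ubiquitin enzymes), 2 to 7 (transcription factors) and 2 to 4 (cytokine signals). Deviations of libraries with the same replicate number in their titles correlated at -0.13, -0.18 and -0.27. Each of these pairs joined a female and a male library, so the correlations cannot show whether the numbers pair the libraries. With a replicate block by title number, 968 genes were called. Among them were 1 gene of the mitochondrial list, 1 of the death receptor list, 1 of the ubiquitin list, 2 transcription factors and 3 cytokine signals. Pmaip1 had adjusted p = 0.0543 (limma) with that block. With the replicate block by library-name numbers, on 4 libraries, 253 genes were called, among them 0 members, 0 mitochondrial, 0 death receptor and 0 ubiquitin genes, 1 transcription factor, 1 cytokine signal and 4 p53 targets, and the fold change of Bcl2 was -0.03871. DESeq2 called 6 mitochondrial genes, 3 higher and 3 lower, and sex as a covariate left 1 ubiquitin gene. Over the libraries left out in turn, Bcl2 ran from -0.2024 to 0.1828 and Mcl1 from -0.01796 to 0.09144. Bcl2 reversed to -0.12 without Nae1T-KO replicate 2, to -0.20 without Nae1WT replicate 2 and to -0.11 with sex as a covariate, and Mcl1 to -0.02 without Nae1T-KO replicate 3. The cause of these changes was not tested. Scaling to total counts moved the median of all genes by 0.05, gave 1176 higher and 622 lower calls, and changed the direction of 0 members. Depth limits Bok, Bik, Bmf, Bcl2l14 and Bcl2l15, which had at most 39 reads in any library.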

Other observations

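The 3 copies of the guardian gene Bcl2a1 are nearly identical in sequence, and how the counting assigned their shared reads is not given in these sources. Bcl2a1a had 254, 204 and 289 normalized counts in Nae1T-KO and 252, 319.9 and 15.2 in Nae1WT, the last from 20 reads in Nae1WT replicate 3. In that library Bcl2a1a made up 0.293% of the sum of the 3 copies, against 5.33% to 6.38% in the other 5 libraries. Bcl2a1d was highest in the same library, with 1096, 1065 and 1454 across Nae1T-KO and 1033, 1464 and 1937 across Nae1WT, and Bcl2a1b had 2632, 2549 and 3655 across Nae1T-KO against 2695, 3713 and 3246 across Nae1WT. The sum of the copies was 3982, 3818 and 5398 across Nae1T-KO and 3979, 5496 and 5198 across Nae1WT, and the groups overlapped. The copies lie on chromosome 9 (mm10), Bcl2a1d from 88723285 to 88731914, Bcl2a1a from 88956900 to 88962419 and Bcl2a1b from 89199209 to 89207827. These values were picked out after they were seen.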
